A study of Homo sapiens with 52 samples.

Results

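The 2 treatments that led WI-38 cells into senescence through the plasma membrane were set against each other at day 0, the end of the treatment itself. PMD-Sen (plasma membrane damage-dependent senescence) was started with 0.0090% sodium dodecyl sulfate (SDS), a detergent that disrupts the membrane lipid layer, and Ca2+-Sen (calcium influx-dependent senescence) with 75 mM KCl, which depolarises the membrane and lets calcium in. Each treatment lasted 24 h, and both were compared with the same untreated young cells. A gene was a member when its normalized reads averaged 10 or more in each of the 2 day 0 tables, which average 2 treated and 2 untreated libraries each, and 14151 of 59408 listed genes qualified. Just inside the limit, TBC1D10C had a lower mean of 10.005 and CACNG8 of 10.006, while REPIN1-AS1 at 9.982 and AL022069.3 at 9.979 fell just outside.

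WI-38 is a diploid fibroblast line from human embryonic lung, wild type in all groups, and the labels set the 2 treated groups apart by treatment alone. The labels give no day for the untreated libraries, so whether these match the day 0 groups in time of culture is not known. Each group held 2 libraries of mRNA from 1 line, which the study's methods call independent samples. Nothing in the labels says whether these were separate cultures, and p-values measure the spread between them. The deposited means were taken apart into the whole reads of each library (the steps are under processing), which gave 18970000 and 15260000 reads for the untreated libraries, 23580000 and 22080000 for PMD-Sen, and 51590000 and 28700000 for Ca2+-Sen, all rounded. Between the 2 libraries of a group, from 28.1% to 31.5% of genes differed beyond counting error and the median absolute log2 difference was 0.10 to 0.14. Each pair was kept as 2 replicates, but this spread cannot say whether the 2 libraries came from separate cultures. Values below are normalized reads per library, the library with more reads first. For 242 members with high PMD-Sen levels the split over the 2 PMD-Sen libraries could not be resolved, and these are given as the mean of the 2. Standard errors and p-values of these members take no spread from the PMD-Sen libraries. Fewer cells of a kind and less RNA per cell cannot be told apart in such bulk samples.

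The fibroblast identity was checked with 11 marker genes, all of them members. Their summed level was 653878 normalized reads in untreated cells, 559957 in PMD-Sen and 289817 in Ca2+-Sen. COL1A1 and COL1A2 made up most of the untreated and PMD-Sen sums, and the other 9 markers summed to 170137, 79252 and 144707, with the treatments in the reverse order. The defining markers KRT5 (epithelium), CD3E (T lymphocytes), and MYOD1 and MYOG (muscle) were at 0 in all 6 libraries. Summed epithelial markers were 3198, 2253 and 4468 in the same order, endothelial markers 2574, 1187 and 2199.9, white blood cell markers 35.3, 39.3 and 77.4, neuron markers 245, 339 and 351, and muscle markers 143, 153 and 239. The angiopoietin receptor gene TEK accounted for 2521, 1113 and 1916 of the endothelial sums, and keratin 18 (KRT18) for 1496, 1055 and 3547 of the epithelial sums. The part of these sums in the results below was not tested.

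Cells read damage in several compartments through separate pathways. Misfolded protein in the endoplasmic reticulum (ER) starts the unfolded protein response, in which the sensors ATF6, IRE1 (ERN1) and PERK raise ER chaperones. PERK and related kinases also act through the transcription factor ATF4, and this shared branch, the integrated stress response, raises amino acid synthesis and transport genes. Salt stress instead acts through the factor NFAT5, which raises enzymes and carriers for small organic solutes, and calcium acts through calcineurin and the NFAT factors.

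Stretches in front of a few genes are printed to show elements of the ER stress and interferon pathways, for genes whose levels set the treatments apart below. Each is the 250 bases upstream of the RefSeq transcript start on build GRCh38.p14, 5′ to 3′ on the gene's own strand, with the match in capitals. The ER stress response element, bound by ATF6 with NF-Y, was searched as CCAAT and CCACG 9 bases apart on either strand. Its second form has ATTGG and CCACG 1 base apart.
HSPA5 (chr9:125241344-125241593, minus strand): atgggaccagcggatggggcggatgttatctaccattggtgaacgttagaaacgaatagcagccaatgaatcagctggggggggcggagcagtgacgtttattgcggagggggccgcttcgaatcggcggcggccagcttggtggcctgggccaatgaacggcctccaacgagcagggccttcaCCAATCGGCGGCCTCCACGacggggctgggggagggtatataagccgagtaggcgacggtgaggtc
CRELD2 (chr22:49918384-49918633, plus strand): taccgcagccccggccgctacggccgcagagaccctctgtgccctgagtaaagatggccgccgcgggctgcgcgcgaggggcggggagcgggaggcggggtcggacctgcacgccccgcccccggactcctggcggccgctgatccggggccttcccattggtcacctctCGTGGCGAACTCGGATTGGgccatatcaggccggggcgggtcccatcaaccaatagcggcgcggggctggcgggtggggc
HERPUD1 (chr16:56931892-56932141, plus strand): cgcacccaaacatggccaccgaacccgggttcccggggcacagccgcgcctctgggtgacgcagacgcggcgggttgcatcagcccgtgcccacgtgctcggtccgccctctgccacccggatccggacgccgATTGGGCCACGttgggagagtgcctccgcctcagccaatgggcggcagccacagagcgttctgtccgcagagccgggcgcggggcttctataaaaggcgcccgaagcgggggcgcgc
The interferon response element was searched as GAAA and GAAA 2 bases apart on either strand.
IFIT1 (chr10:89392373-89392622, plus strand): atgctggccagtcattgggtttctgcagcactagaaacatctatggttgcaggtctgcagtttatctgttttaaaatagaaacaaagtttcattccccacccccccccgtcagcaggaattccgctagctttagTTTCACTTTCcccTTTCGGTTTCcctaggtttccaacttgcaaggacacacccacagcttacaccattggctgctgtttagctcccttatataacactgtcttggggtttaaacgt
HSPA5 carried the element starting 66 bases upstream, CRELD2 carried it on the opposite strand at 80 bases, and HERPUD1 carried the second form at 117 bases. IFIT1 held 2 interferon elements, at 116 and 103 bases. A gene was counted as holding an element when the 250 bases before any of its listed starts did. Of 23 unfolded protein response members with a listed promoter, 7 held the first element (HSPA5, HSP90B1, PDIA6, CALR, CANX, CRELD2 and XBP1) and 2 the second (SDF2L1 and HERPUD1), where 0.0916% and 0.0659% of 27305 genes did. The interferon element was in front of 10 of 14 interferon-stimulated members, against 3.71% of all genes. The ATF4 composite element, TGATGCAA, stood in front of 3 of 30 integrated stress response members (CHAC1, CEBPG and AARS1), against 0.967% of all genes. These matches describe letters and not binding, and the ER stress and interferon elements were chosen after the values had been seen. A CCAAT box, part of the first element, was present in front of 21 of the 23 genes and 37% of all genes. The NFAT core GGAAA stood in front of 10 of 22 osmotic and ion balance members, against 60.7% of all genes, and the metal response element TGCNCNC in front of 3 of 4 members of the metallothionein list, against 53%. Each was searched on both strands.

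PMD-Sen and Ca2+-Sen at day 0 differed at most measured genes. A gene was called when its adjusted p was below 0.05 in a limma test over all 14151 members, and 9158 were called, 64.7% of the members. Of these, 4849 (34.3%) were higher in PMD-Sen and 4309 (30.5%) higher in Ca2+-Sen, while 4993 were not called. Every list count below is to be read beside these 2 shares. The median absolute log2 difference was 0.56 against a median standard error of 0.12, and 3558 called genes differed by at least 1 on the log2 scale (1924 higher in PMD-Sen, 1634 in Ca2+-Sen). Differences of at least 3 numbered 195, with 75 on the PMD-Sen side and 120 on the Ca2+-Sen side. The libraries of the 2 treatments did not overlap at 11665 of the 13909 members resolved in every library.

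**Figure D1:**
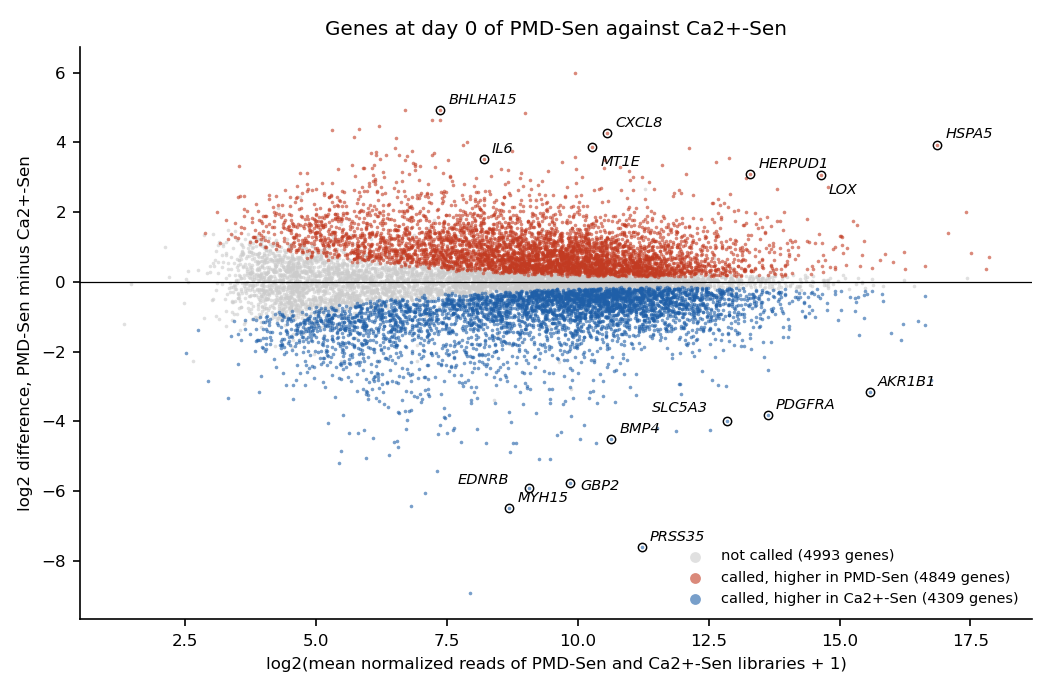
Log2 difference between PMD-Sen and Ca2+-Sen at day 0 (vertical axis) against the log2 mean level of each of the 14151 members (horizontal axis), coloured by call, with 15 genes circled. HSPA5 stands at the upper right with a difference of 3.94 at a very high level, and PRSS35 lies far below 0 at -7.61.

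Each treatment was also compared with the untreated libraries, which the 2 comparisons share. PMD-Sen called 7916 members against untreated (55.9%), with 3943 higher (27.9%) and 3973 lower (28.1%). Ca2+-Sen called 8475 (59.9%), with 3955 higher (27.9%) and 4520 lower (31.9%). Scaling the libraries by their upper quartile moved these medians by 0.11 and 0.20 on the log2 scale and changed the split to 4813 higher and 3242 lower in PMD-Sen, and 5408 higher and 3222 lower in Ca2+-Sen. Small changes against untreated cells are to be read beside these shifts.

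**Figure D2:**
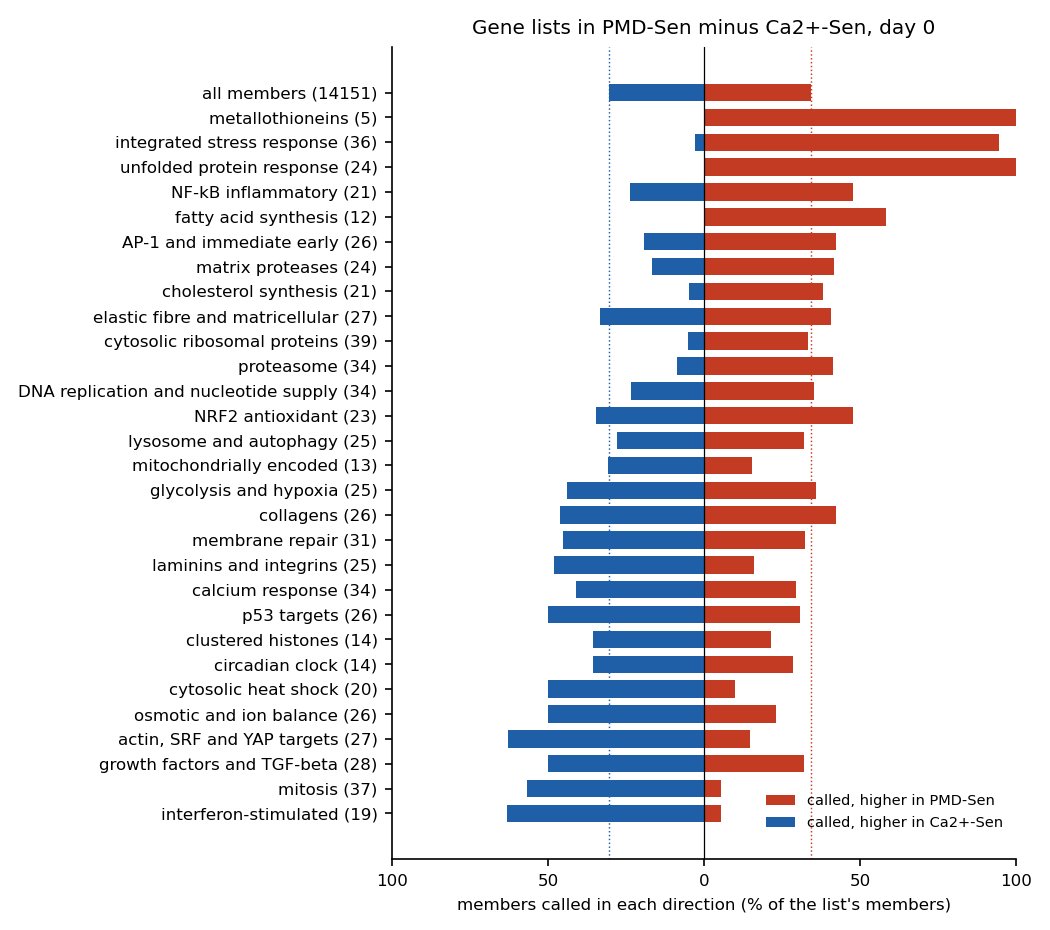
Share of each gene list's members (horizontal axis, percent; number of members in parentheses) called higher in PMD-Sen (right) or higher in Ca2+-Sen (left). Dotted lines mark the shares over all members, 34.3% and 30.5%, and the ER, amino acid and metal lists at the top lie far to the right of them.

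ER stress genes were higher with SDS without exception. All 24 measured members of the unfolded protein response list were higher in PMD-Sen, with a median log2 difference of 1.44 where the median over all members was 0.04. HSPA5, the main ER chaperone BiP, averaged 223251 normalized reads in PMD-Sen as an unresolved mean, against 13882 and 15325 in Ca2+-Sen and 32817 and 28811 in untreated cells. The difference was 15.3-fold (log2 3.94 ± 0.10 SE, adjusted p = 4.6e-07), and the untreated libraries lay between the treatments. HERPUD1, which helps remove misfolded protein from the ER, was at 18632 and 17385 in PMD-Sen, 1998 and 2199 in Ca2+-Sen, and 1568 and 1453 in untreated cells. Its libraries did not overlap, and the difference was 8.58-fold (adjusted p = 2.1e-07). DNAJB9, a BiP co-chaperone, stood at 7801 and 7527 in PMD-Sen against 883 and 916 in Ca2+-Sen (8.51-fold, adjusted p = 2.7e-07).

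Against untreated cells, PMD-Sen raised 21 of the 24 and lowered 0, while Ca2+-Sen raised 5 and lowered 14. MANF, an ER-retained survival factor, rose in PMD-Sen (log2 1.45) and fell in Ca2+-Sen (log2 -1.42), and CRELD2 did the same (0.60 and -1.70). The ER chaperone HSP90B1 rose by 0.85 in PMD-Sen and fell by 0.90 in Ca2+-Sen on the log2 scale, and the lectin chaperone calreticulin (CALR) was at 0.18 in PMD-Sen and fell by 0.80 in Ca2+-Sen. The sensor gene ERN1, which encodes IRE1, rose in both, by 2.56 and 0.69.

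The integrated stress response list had 34 of 36 members higher in PMD-Sen, with a median log2 difference of 1.58, and 1 higher in Ca2+-Sen. TRIB3, a pseudokinase that feeds back on ATF4, was at 11891 and 11481 in PMD-Sen, 1013 and 1127 in Ca2+-Sen, and 664 and 541 in untreated cells (10.9-fold, log2 3.45 ± 0.10, adjusted p = 3.5e-07). CTH, the enzyme that releases cysteine from cystathionine, was at 814 and 879 in PMD-Sen, 107 and 105 in Ca2+-Sen, and 26.8 and 24.4 in untreated cells (7.90-fold, adjusted p = 2.1e-06). In both genes the 3 groups formed separate steps, with Ca2+-Sen in the middle. STC2, a secreted stanniocalcin, averaged 48569 in PMD-Sen and was at 7439.9 and 7416 in Ca2+-Sen, below the untreated 11762 and 12169.8 (6.54-fold, adjusted p = 3.9e-07).

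Most of this list rose with each treatment. PMD-Sen raised 35 of the 36 members against untreated and Ca2+-Sen raised 25 and lowered 5. ASNS, asparagine synthetase, rose by 3.52 in PMD-Sen and 2.19 in Ca2+-Sen on the log2 scale. ATF4 itself rose by 1.59 and 1.37, and the treatments differed by 0.22 (adjusted p = 0.022). The member higher in Ca2+-Sen was SLC38A2, a sodium-coupled amino acid carrier, at 49464 and 53007 against a PMD-Sen mean of 39191 (1.31-fold, adjusted p = 0.0084). Leaving out the smaller Ca2+-Sen library ended that call (log2 -0.34, adjusted p = 0.068). CEBPB, a factor that ATF4 raises, did not pass the test between the treatments (log2 -0.06, adjusted p = 0.66).

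**Figure D3:**
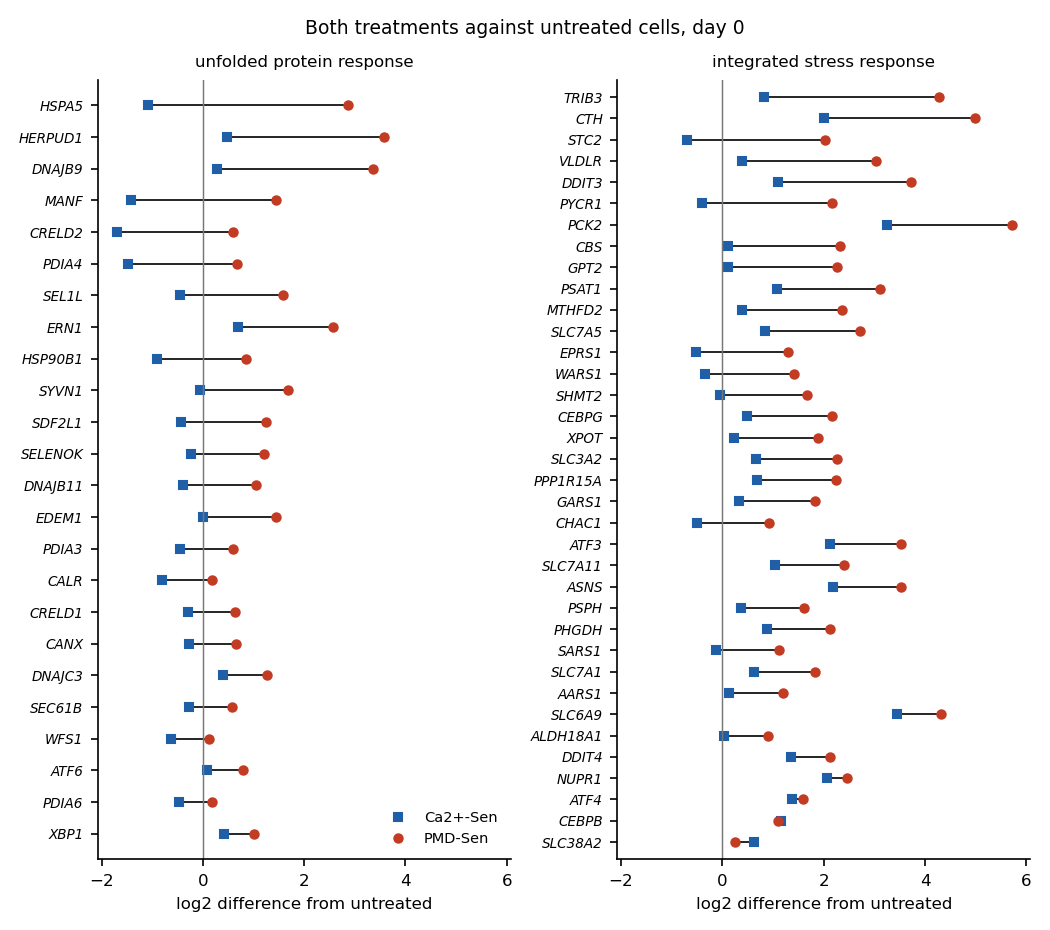
Log2 difference from untreated cells (horizontal axis) of every member of the unfolded protein response and integrated stress response lists (rows), with circles for PMD-Sen, squares for Ca2+-Sen, a black line where the treatments differ by the test and a grey line where they do not. Circles lie to the right of squares in all 24 rows of the left panel, and most squares there lie below 0.

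Metallothioneins, small cysteine-rich proteins that bind zinc and copper, were also higher in PMD-Sen. The list held 3 of them with the zinc exporter gene SLC30A1 and the metal-sensing factor gene MTF1, and all 5 were higher in PMD-Sen, with a median log2 difference of 2.66. With upper quartile scaling 4 of the 5 were called. MT1E was at 1906 and 2746 in PMD-Sen, 166 and 148 in Ca2+-Sen, and 936 and 1207 in untreated cells (14.5-fold, log2 3.86 ± 0.18, adjusted p = 1.4e-06). MT1X stood at 166 and 186 in PMD-Sen and 14.8 and 11.9 in Ca2+-Sen, around untreated values of 25.5 and 22.8. MT2A averaged 24722 in PMD-Sen against 3441 and 4446 in Ca2+-Sen and 9243 and 12338 in untreated cells. PMD-Sen lay above the untreated libraries and Ca2+-Sen below them in all 3, and since metallothionein genes are near copies of each other, the division of reads among them is uncertain.

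Several fatty acid enzymes were higher with SDS. Of 12 fatty acid synthesis genes, 7 were higher in PMD-Sen and 0 in Ca2+-Sen (median log2 0.50), beside 34.3% and 30.5% of all members. The elongase ELOVL6 was at 3693 and 3651 in PMD-Sen, 559 and 623 in Ca2+-Sen, and 1113 and 919 in untreated cells (6.21-fold, adjusted p = 7.6e-07). ELOVL5, which lengthens polyunsaturated fatty acids, was at 7822 and 8149.9 against 1368 and 1460.2 (5.65-fold, adjusted p = 2.7e-07), with untreated libraries at 2241 and 2083. FADS1, a desaturase, stood at 4827 and 6144 against 1947 and 2042, close to the untreated 2279.5 and 1823. In cholesterol synthesis 8 of 21 members were higher in PMD-Sen, a share near the 34.3% of all members, with a median of 0.22. The 1 member higher in Ca2+-Sen was the lanosterol synthase gene LSS, at 396 and 924 in PMD-Sen. Its log2 difference of -1.27 became -0.65 without the larger PMD-Sen library and -1.87 without the smaller. MSMO1, a sterol oxidase of the pathway, was at 3755 and 5503 in PMD-Sen, 2266 and 2051 in Ca2+-Sen, and 1333 and 860.1 in untreated cells (2.11-fold, adjusted p = 0.0029).

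HK2 and PDK1 set the treatments apart among glucose genes. Hexokinase HK2, which traps glucose in the cell, was at 3872 and 3390.0 in PMD-Sen, 437 and 527 in Ca2+-Sen, and 2227 and 2095 in untreated cells (7.54-fold, log2 2.91 ± 0.10, adjusted p = 6.5e-07). PDK1, a mitochondrial kinase that inhibits pyruvate dehydrogenase, averaged 1075 in PMD-Sen, 266 in Ca2+-Sen and 832 in untreated cells (4.16-fold, adjusted p = 4.6e-05). The vasodilator peptide adrenomedullin (ADM) went the opposite way, at 1984 and 1735 against 7633 and 7204 (4.00-fold higher in Ca2+-Sen, adjusted p = 8.3e-07). The glycolysis and hypoxia list as a whole was split, with 9 of 25 higher in PMD-Sen and 11 in Ca2+-Sen. Among all members the shares were 34.3% and 30.5%.

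Salt-response genes stood on the KCl side. Among 26 osmotic and ion balance members, 13 were higher in Ca2+-Sen and 6 in PMD-Sen, with a median log2 difference of -0.40. SLC5A3, the carrier that imports myo-inositol, was at 13132 and 14549 in Ca2+-Sen, 877 and 881 in PMD-Sen, and 1561 and 1342 in untreated cells (15.7-fold, log2 -3.97 ± 0.09, adjusted p = 2.1e-07). AKR1B1, the aldose reductase that makes sorbitol, was at 86145 and 89178 in Ca2+-Sen, 9955 and 9665 in PMD-Sen, and 5243 and 7464 in untreated cells (8.93-fold, adjusted p = 1.2e-06). Both are known to rise in salty medium through NFAT5, whose own RNA was also higher in Ca2+-Sen, with log2 differences from untreated of 0.56 in Ca2+-Sen and 0.10 in PMD-Sen. The part of NFAT5 in these differences was not tested.

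Beta subunits of the sodium pump followed the same side. ATP1B1 rose by 1.45 in Ca2+-Sen on the log2 scale and stood at -0.26 in PMD-Sen, and the treatments differed (adjusted p = 3.4e-06). ATP1B3 differed in the same direction (1.67 against 0.05). The taurine carrier SLC6A6 rose by 0.91 in Ca2+-Sen and was at -0.17 in PMD-Sen. The potassium channel gene KCNK2 was lower than untreated in both, at 156 and 176 in Ca2+-Sen and 16.5 and 27.1 in PMD-Sen against 433 and 261. On the PMD-Sen side stood CLCN3, a chloride-proton exchanger, at 5878 and 5682 against 2345 and 2336 (2.47-fold, adjusted p = 1.1e-06). The volume-regulated anion channel genes LRRC8A, LRRC8C and LRRC8D did not pass the test between the treatments, with log2 differences of 0.10, -0.02 and -0.00.

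The calcium list leaned slightly to the KCl side, with members called on both sides. Of 34 members, 14 were higher in Ca2+-Sen and 10 in PMD-Sen, beside 30.5% and 34.3% of all members. Its median was -0.26, where that over all members was 0.04. RCAN1, the calcineurin inhibitor that NFAT induces, was at 15264 and 14949 in PMD-Sen, 3272 and 4276 in Ca2+-Sen, and 3209 and 3553 in untreated cells (4.04-fold, log2 2.01 ± 0.12, adjusted p = 3.4e-06). ATP2B1, the plasma membrane pump that expels calcium, was at 8013 and 7639 in PMD-Sen, 2781 and 2957 in Ca2+-Sen, and 2918 and 2927 in untreated cells (2.73-fold, adjusted p = 1.0e-06). In both genes the Ca2+-Sen change against untreated did not pass the test, with adjusted p of 0.31 and 0.72.

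NR4A nuclear receptor genes, which respond early to calcium and depolarisation, were higher in Ca2+-Sen. NR4A1 was at 374 and 711 in Ca2+-Sen, 121 and 70.0 in PMD-Sen, and 121 and 137 in untreated cells (5.56-fold, adjusted p = 2.8e-04). NR4A2 was at 163 and 703 against 72.4 and 80.2, and the smaller Ca2+-Sen library set much of its difference, which went from -2.14 to -1.09 without it and to -3.19 without the larger. The call was also lost without the larger PMD-Sen library (log2 -2.06, adjusted p = 0.052). NR4A3 was at 81.0 and 228 against 54.8 and 47.4, and its call (adjusted p = 0.031) ended without the smaller Ca2+-Sen library (log2 -0.66, adjusted p = 0.22) or without either PMD-Sen library. With voom weights neither NR4A2 nor NR4A3 was called (adjusted p of 0.099 and 0.1), and with no filter on low means NR4A3 was not (adjusted p = 0.069). Also higher in Ca2+-Sen was NFATC1, a calcium-driven factor, at a log2 difference from untreated of 1.23 against 0.16 in PMD-Sen.

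**Figure D4:**
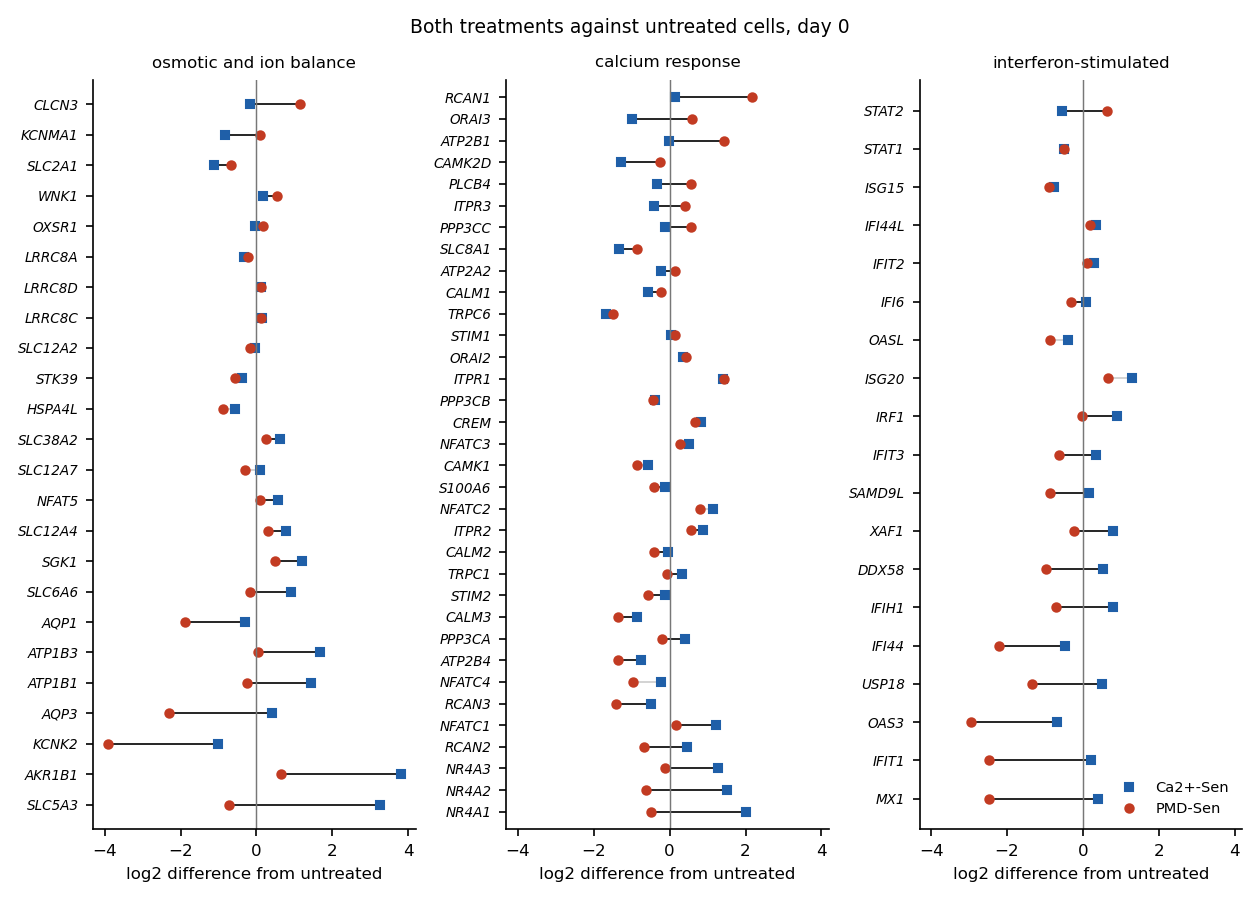
Log2 difference from untreated cells (horizontal axis) of osmotic and ion balance, calcium response and interferon-stimulated members (rows), with circles for PMD-Sen, squares for Ca2+-Sen, a black line where the treatments differ by the test and a grey line where they do not. SLC5A3 and AKR1B1 have squares far to the right at 3.25 and 3.81, RCAN1 has its circle to the right at 2.16, and the lowest rows of the right panel have circles near -2.47.

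Secreted inflammatory genes did not share a direction. The NF-kB list had 10 of 21 members higher in PMD-Sen and 5 in Ca2+-Sen (median log2 0.72), beside 34.3% and 30.5% of all members. CXCL8, the neutrophil chemokine interleukin 8, was at 3438 and 2335 in PMD-Sen and 119 and 179.6 in Ca2+-Sen (19.2-fold, log2 4.26 ± 0.72, adjusted p = 0.001), and its untreated libraries were far apart at 32.2 and 219.9. IL6, interleukin 6, was at 609 and 471 in PMD-Sen, 35.6 and 59.3 in Ca2+-Sen, and 61.7 and 96.1 in untreated cells (11.4-fold, adjusted p = 2.2e-05). TSLP, an epithelial-type cytokine that acts on dendritic cells, was at 436 and 438 against 69.0 and 102 (5.15-fold, adjusted p = 3.7e-04). On the opposite side, the monocyte chemokine CCL2 was at 342 and 503 in Ca2+-Sen, 62.0 and 54.2 in PMD-Sen, and 636 and 945 in untreated cells, so PMD-Sen was lowest (7.04-fold, adjusted p = 1.9e-05). TNFAIP6, a hyaluronan-binding protein, was at 654 and 716 in Ca2+-Sen, 103 and 146 in PMD-Sen, and 36.2 and 40.7 in untreated cells, a rise with each treatment.

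Interferon-stimulated genes were lower with SDS. In that list 12 of 19 members were higher in Ca2+-Sen and 1, STAT2, was higher in PMD-Sen, with a median log2 difference of -1.0. IFIT1, which binds foreign RNA ends, was at 58.9 and 56.5 in PMD-Sen, 349.9 and 403 in Ca2+-Sen, and 405 and 261 in untreated cells (6.42-fold, log2 -2.68 ± 0.21, adjusted p = 1.4e-05). MX1, an antiviral GTPase, was at 19.6 and 10.2 in PMD-Sen, 90.7 and 134 in Ca2+-Sen, and 131 and 52.1 in untreated cells (7.32-fold, adjusted p = 9.0e-04). OAS3, which makes oligoadenylate from double-stranded RNA, averaged 37.4 in PMD-Sen, 186 in Ca2+-Sen and 309 in untreated cells (4.89-fold, adjusted p = 1.2e-04). For IFIT1, whose upstream bases are printed above, and MX1, Ca2+-Sen did not differ from untreated by the test (adjusted p of 0.42 and 0.49), and PMD-Sen lay below it. PMD-Sen lowered 10 of the 19 against untreated and Ca2+-Sen lowered 3. GBP2, an interferon-induced GTPase outside the list, was at 23.8 and 42.9 in PMD-Sen, 1783 and 1822 in Ca2+-Sen, and 436 and 471 in untreated cells (54.7-fold, adjusted p = 8.8e-07).

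The heat shock list leaned to the KCl side. Of 20 heat shock members, 10 were higher in Ca2+-Sen and 2 in PMD-Sen (median -0.36). CRYAB, the small heat shock protein alpha B-crystallin, was at 2959 and 2804 in Ca2+-Sen, 481 and 527 in PMD-Sen, and 366 and 583 in untreated cells (5.71-fold, adjusted p = 1.1e-05). DNAJA1, an HSP70 co-chaperone, was at 17546 and 18967 against 5915 and 5167, with untreated cells at 6521 and 6819 (3.30-fold, adjusted p = 1.4e-06). HSPH1, a nucleotide exchange factor for HSP70, rose in both, to 15121 and 16377 in Ca2+-Sen and 8077 and 7136 in PMD-Sen, from 4814 and 4752. The 2 members higher in PMD-Sen were DNAJB4 (2.36-fold) and the mitochondrial chaperonin HSPD1 (1.89-fold). The HSP70 genes HSPA1A and HSPA1B were in the list but were not members. HSPA6, an HSP70 gene outside the list, was called higher in PMD-Sen (log2 1.94).

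The antioxidant genes driven by NRF2 were divided between the treatments, with 11 of 23 members higher in PMD-Sen and 8 in Ca2+-Sen (median 0.04, or -0.05 with upper quartile scaling). Heme oxygenase HMOX1 was at 11360.2 and 10905 in PMD-Sen, 2126 and 2725 in Ca2+-Sen, and 914 and 1539 in untreated cells (4.62-fold, adjusted p = 4.6e-05). SLC7A11, the cystine importer, averaged 36077 in PMD-Sen against 14398 and 13323, from 6094 and 7532 in untreated cells. AKR1B10, a reductase of reactive aldehydes, was at 497 and 478 in Ca2+-Sen, 43.4 and 51.9 in PMD-Sen, and 28.2 and 30.9 in untreated cells (10.1-fold, adjusted p = 3.1e-06). AKR1C1 rose with both treatments, to 9323 and 8931 in Ca2+-Sen and 3014 and 2343 in PMD-Sen, from 532 and 578. The aldo-keto reductases have near copies, so the division of reads among them is uncertain.

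Cell cycle genes were below untreated in both treatments. All 37 mitosis members were lower than untreated in PMD-Sen and 35 in Ca2+-Sen, and between the treatments 21 were higher in Ca2+-Sen and 2 in PMD-Sen (median -0.71). The mitotic kinesin KIF20A was at 75.5 and 155 in PMD-Sen, 467 and 546 in Ca2+-Sen, and 1482 and 1455 in untreated cells (4.64-fold, adjusted p = 1.9e-04). The mitotic kinase PLK1 was at 120.0 and 259 against 526 and 634, with untreated cells at 1201 and 1245. AURKB, which corrects spindle attachments, was the reverse, at 109 and 140.0 in PMD-Sen against 77.8 and 73.7. The DNA replication list was divided (12 of 34 higher in PMD-Sen, 8 in Ca2+-Sen, median 0.05, or -0.04 with upper quartile scaling), though 33 of its members were lower than untreated in PMD-Sen and 34 in Ca2+-Sen. CDC6, the origin licensing factor, was the member that rose in PMD-Sen, at 1085 and 1425 against 758 and 656 in untreated cells and 222 and 216 in Ca2+-Sen (5.66-fold between treatments, adjusted p = 2.7e-06).

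Among p53 targets, 13 of 26 were higher in Ca2+-Sen and 8 in PMD-Sen (median -0.30), beside 30.5% and 34.3% of all members. GDF15, a secreted stress cytokine that ATF4 also drives, was at 17528 and 15646 in PMD-Sen, 5295 and 5191 in Ca2+-Sen, and 1012 and 922 in untreated cells (3.16-fold, adjusted p = 1.3e-06). GADD45A was at 8769.7 and 7494 in PMD-Sen against 2309.6 and 2326, close to the untreated 2734 and 2452. PPM1D, the phosphatase that turns p53 off, was at 1951 and 2258 in Ca2+-Sen, 449 and 445 in PMD-Sen, and 514 and 629 in untreated cells (4.69-fold, adjusted p = 2.1e-06). The repair polymerase gene POLH was at 3542 and 3347 against 1403 and 1460.1, around untreated values of 1926 and 1978.

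CDKN1A and CDKN2A, the arrest genes used to mark senescence, did not pass the test between the treatments. CDKN1A, which encodes p21, averaged 28627 in PMD-Sen and was at 27352 and 27784 in Ca2+-Sen (log2 0.05 ± 0.07, adjusted p = 0.55), with untreated libraries at 20891 and 22453. CDKN2A, which encodes p16 and ARF, was at 640.1 and 566 in PMD-Sen, 517 and 558 in Ca2+-Sen, and 598 and 593 in untreated cells (log2 0.16 ± 0.10, adjusted p = 0.16). The nuclear lamina gene LMNB1, whose loss marks senescent cells, was at 74.5 and 108 in PMD-Sen and 120.3 and 169 in Ca2+-Sen, far below the untreated 1361 and 1150.0. The difference between the treatments in LMNB1 (adjusted p = 0.029) was lost without the larger PMD-Sen or the smaller Ca2+-Sen library (log2 -0.38 and -0.42, adjusted p = 0.18 in each). It was also lost with no filter on low means and with voom weights (adjusted p of 0.061 and 0.075). Fitting every group whose reads were worked back, which left out part of the series, lost it too (adjusted p = 0.078). CHMP4B, a membrane-sealing ESCRT-III subunit, was at 4005 and 3939 in Ca2+-Sen and 3231 and 3139 in PMD-Sen, against 3193 and 3204 in untreated cells (1.25-fold, adjusted p = 0.0012).

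Membrane repair genes were divided. Of 31 members, 10 were higher in PMD-Sen and 14 in Ca2+-Sen (median -0.15), beside 34.3% and 30.5% of all members. Dysferlin (DYSF), which fuses vesicles to a torn membrane, was at 126 and 137 in PMD-Sen, 40.7 and 27.1 in Ca2+-Sen, and 12.1 and 19.5 in untreated cells (3.86-fold, adjusted p = 9.0e-04). Annexin A1 (ANXA1) averaged 19666 in PMD-Sen against 9936 and 10255. S100A10, the annexin A2 partner, was at 7378 and 7204 in Ca2+-Sen, 2037 and 2344 in PMD-Sen, and 4748 and 4682 in untreated cells (3.34-fold, adjusted p = 1.1e-06). Caveolin 1 (CAV1), the coat protein of caveolae, was at 24452 and 24874 in Ca2+-Sen and 7521 and 9045 in PMD-Sen, below the untreated 37027 and 31603 in both.

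Cytoskeletal genes fell with SDS more than with KCl. Of 27 actin, SRF and YAP target members, 17 were higher in Ca2+-Sen and 4 in PMD-Sen (median -0.42), while 23 were lower than untreated in PMD-Sen and 20 in Ca2+-Sen. ACTB, beta-actin, averaged 58310.0 in PMD-Sen, against 129315 and 125710.3 in Ca2+-Sen and 197275 and 207675 in untreated cells (2.19-fold, adjusted p = 7.9e-05). Calponin 2 (CNN2) was at 3517 and 4675 in PMD-Sen against 14994 and 13852, where untreated cells had 15619 and 15758. SRF, the factor that drives actin genes, was at 1388 and 1368 in PMD-Sen, 3499 and 3357 in Ca2+-Sen, and 3114 and 3242 in untreated cells (2.49-fold, adjusted p = 1.3e-06).

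Fibrillar collagens differed in opposite directions. COL1A2 averaged 279779 in PMD-Sen against 68989 and 70532 in Ca2+-Sen, with untreated libraries at 213862 and 159698 (4.01-fold, adjusted p = 2.9e-05), and COL1A1 averaged 200927 against 79567 and 71207, both below the untreated 333746 and 260416. COL3A1 had the reverse order, at 3056 and 4569 in PMD-Sen, 22756 and 20175 in Ca2+-Sen, and 33049 and 26377 in untreated cells (5.73-fold higher in Ca2+-Sen, adjusted p = 9.3e-06). LOX, which cross-links collagen and elastin, averaged 45651 in PMD-Sen against 5136 and 5804 in Ca2+-Sen and 11697 and 11309.7 in untreated cells (8.36-fold, log2 3.06 ± 0.08, adjusted p = 5.1e-07). Across all 26 collagens, 11 were higher in PMD-Sen and 12 in Ca2+-Sen. The collagenase gene MMP1 was at 10621 and 10682 in PMD-Sen and 2798 and 3341 in Ca2+-Sen (3.48-fold, adjusted p = 1.1e-04). Of 24 matrix protease members, 10 were higher in PMD-Sen and 4 in Ca2+-Sen, beside 34.3% and 30.5% of all members.

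Growth factor and fibroblast marker genes leaned to the KCl side. In the growth factor and TGF-beta list, 14 of 28 members were higher in Ca2+-Sen and 9 in PMD-Sen (median -0.44). BMP4, a bone morphogenetic ligand, was at 3219 and 2902 in Ca2+-Sen, 123 and 147 in PMD-Sen, and 1188 and 764 in untreated cells (22.6-fold, log2 -4.50 ± 0.19, adjusted p = 1.1e-06). SMAD6, an inhibitor that BMP signals induce, was at 765 and 649 against 91.0 and 104 (7.18-fold), with untreated cells at 544 and 621. Its Ca2+-Sen level did not differ from untreated by the test (log2 0.28, adjusted p = 0.1), and PMD-Sen lay below untreated (log2 -2.57). IGFBP5 averaged 27320.3 in PMD-Sen against 191713 and 191582 in Ca2+-Sen, while IGFBP3 was at 6552 and 15617 against 1713 and 2215. The IGFBP3 difference of 2.38 became 3.01 without the larger and 1.76 without the smaller PMD-Sen library. Among 11 fibroblast markers, 7 were higher in Ca2+-Sen and 3 in PMD-Sen (median -1.12). PDGFRA, the PDGF receptor alpha, was at 24327 and 22969.5 in Ca2+-Sen, 1504 and 1880.2 in PMD-Sen, and 9760.4 and 8317 in untreated cells (14.1-fold, adjusted p = 3.8e-07), and S100A4, also called fibroblast-specific protein, was at 2135 and 2220.0 against 207 and 286 (8.92-fold, adjusted p = 1.2e-06).

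**Figure D5:**
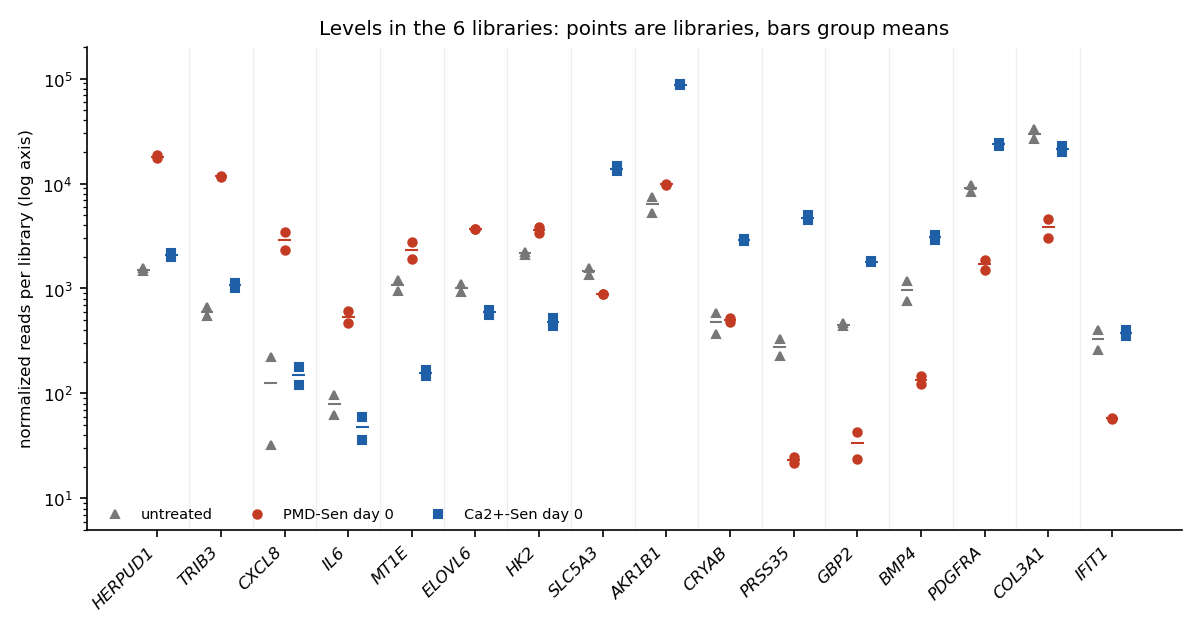
Normalized reads per library (vertical axis, log scale) of 16 genes in the 2 untreated, 2 PMD-Sen and 2 Ca2+-Sen libraries, with points for libraries and bars for group means. PMD-Sen points lie above both other groups from HERPUD1 to HK2, and below both from PRSS35 to IFIT1, with CXCL8 showing the widest untreated pair.

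The largest single differences were on the KCl side. PRSS35, a serine protease-like secreted protein, was at 4487 and 5002 in Ca2+-Sen, 21.7 and 24.8 in PMD-Sen, and 331 and 225 in untreated cells (196-fold, log2 -7.61 ± 0.18, adjusted p = 2.1e-07). ABCG1, a cholesterol exporter, had 0 reads in both PMD-Sen libraries and 423 and 554 normalized reads in Ca2+-Sen, at least 289.6-fold higher when 3 reads over the PMD-Sen pair are taken as the floor. RASL12 had 3 unscaled reads in PMD-Sen and 732 in Ca2+-Sen, and after division by the size factors the ratio was 135 with a 95% counting interval of 46.1 to 658. MYH15, a myosin heavy chain, was at 773 and 859.7 against 7.24 and 9.03 (89.8-fold), and the endothelin receptor EDNRB at 1002 and 1095 against 11.4 and 23.7 (60.0-fold). In these genes untreated cells lay between the treatments, at 48.3 and 32.6 for MYH15 and 44.2 and 94.5 for EDNRB. The integrin subunit ITGB8 (33.6-fold) and METTL7A, a lipid droplet methyltransferase-like protein (33.9-fold), had the same order.

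Among the genes with the largest differences on the SDS side, beside CXCL8, were a secretory cell factor and long noncoding RNAs. BHLHA15, known as MIST1, which the XBP1 branch is known to induce, was at 361 and 277 in PMD-Sen, 11.6 and 7.62 in Ca2+-Sen, and 28.2 and 17.9 in untreated cells (30.4-fold, log2 4.93 ± 0.33, adjusted p = 6.3e-06). The long noncoding RNA LINC00973 averaged 316 against 11.5 (25.2-fold), and LINC01291 at 239 and 161 against 6.94 and 4.23 (30.6-fold). CDH15, a cadherin, was at 87.9 and 125 against 2.78 and 5.93 (20.7-fold). PSMC4, a proteasome ATPase, was at 2144 and 1757 in PMD-Sen against 26.4 and 33.0, but its untreated libraries differed from each other as well, at 101 and 27.7, and the largest difference on the PMD-Sen side among the 34 listed proteasome genes was that of PSMD4 (1.72-fold).

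Further lists are given by their counts and medians, beside 34.3% higher in PMD-Sen and 30.5% in Ca2+-Sen among all members. Ribosomal protein genes had 13 of 39 members higher in PMD-Sen and 2 in Ca2+-Sen with a median of 0.10, or 8 and 5 with a median of 0.01 under upper quartile scaling, and proteasome genes 14 of 34 and 3 with a median of 0.06, or -0.03 with upper quartile scaling. Lysosome and autophagy genes had 8 of 25 and 7 with a median of -0.01, among them MAP1LC3B, the autophagosome protein LC3B, at 18727 and 16869 in PMD-Sen, 6536 and 6967 in Ca2+-Sen, and 3533 and 3773 in untreated cells (2.63-fold, adjusted p = 2.4e-06). The lysosomal calcium channel gene MCOLN1 was reversed, at 1015 and 937 against 1951 and 1940.5. Of 14 circadian genes 4 were higher in PMD-Sen and 5 in Ca2+-Sen (median -0.34), with PER3 at 81.7 and 91.5 against 345 and 425. AP-1 and immediate early genes had 11 of 26 higher in PMD-Sen and 5 in Ca2+-Sen with a median of 0.44, and laminins and integrins 4 of 25 and 12 with a median of -0.25. Elastic fibre and matricellular genes had 11 of 27 and 9 with a median of 0.11. Mitochondrially encoded genes had 2 of 13 and 4 with a median of -0.04, and clustered histones 3 of 14 and 5 with a median of -0.33. The 13 of 39 ribosomal protein genes stood beside 34.3% higher in PMD-Sen among all members.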

How the data were processed

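WI-38 RNA was measured by mRNA sequencing. Per the labels, reads were processed with Trim Galore, HISAT2, HTSeq, featureCounts and DESeq2 on GRCh38 (hg38), and versions are not given in the sources used here. The series holds 52 deposited tables. Each table used here compares 1 group with the same 2 untreated libraries, and both tables of a treated group are identical. Only the mean signal per gene was used, which the authors made before they deposited it by averaging counts divided by size factors over 4 libraries. The fold changes and p-values in the other columns hold the authors' own comparisons and were not used.

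Each deposited mean is a sum of whole reads divided by 4 size factors, so the reads of each library were worked back exactly, for all 32107 genes above 0 in the Ca2+-Sen table and 99.15% of 28581 in the PMD-Sen table, which has 10 digits. That each table holds 2 treated and 2 untreated libraries follows the labels, and no library could be tied to a replicate number. Simulated tables gave no wrong gene.

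Reads were divided by median-of-ratios size factors over the 6 libraries, and limma 3.58.1 (R 4.3.3) with a mean-dependent prior was fitted to log2(value + 1) of the 3 groups, with Benjamini-Hochberg adjustment over all 14151 members. This scale understates changes of low genes. For the 242 unresolved members the PMD-Sen mean entered with a weight of 2, so their spread comes from the other libraries. Both steps were tested on simulated data. Precision is limited by 2 libraries a group, and intervals cover counting error only.

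Named genes are drawn from the 12 with the largest difference on each side (called, mean of at least 100 in the higher group, libraries not overlapping), up to 3 called genes on each side of every list, and 8 RNAs of interest to the study. RPLP0P2, a pseudogene of RPLP0, was left out for shared reads, and some genes are not reported here. Other list members were named after their values were seen. The members, lists and tests were chosen with earlier results of these data known. Promoters come from a RefSeq table of 35116 starts of 27305 genes.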

Additional observations from a re-analysis of the deposited data

How the results depend on the processing

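The count of called genes ran from 7597 to 9478 over the alternatives that kept the same 14151 members, beside 9158, and leaving out 1 library gave 7597 to 9459. With no filter on low means 10099 of 33383 genes were called. A required log2 difference of at least 1 reduced the 9158 calls to 3558, the 4849 to 1924 and the 4309 to 1634, by construction. Scaling by the upper quartile gave 4320 higher in PMD-Sen and 4893 higher in Ca2+-Sen, moved the median by -0.09 and turned the sign of 3 list medians, those of DNA replication, NRF2 and proteasome genes, none of which exceeded 0.06 in size. It also turned CDKN1A from 0.05 to -0.04, not called either way. Of 193 named genes, 174 kept direction and call under every alternative in which they were tested, and 18 lost the call under at least 1, mostly on leaving out a library. For genes with an unresolved PMD-Sen split, leaving out 1 PMD-Sen library still entered the mean of both. Those settings therefore could not test such genes. All 16 alternatives were run on 127 of the named genes, and the others lacked resolved reads or a mean of at least 100. The cause was not tested. No paired analysis was possible because the worked-back libraries carry no replicate number from the labels. Depth limits genes near a mean of 10, and counts of 0 in PMD-Sen allow 3 reads over its 2 libraries.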

Other observations

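Genes that reached a mean of 10 in the table of 1 treatment alone were no members, and they numbered 180 for PMD-Sen and 1202 for Ca2+-Sen. The limit applies to each table's own scaling, while the values below are scaled over the 6 libraries together. Ca2+-Sen libraries held more reads (51590000 and 28700000, against 23580000 and 22080000 in PMD-Sen). The same level therefore gave a higher mean in the Ca2+-Sen table, and the counts of 180 and 1202 are not on a like scale. On the PMD-Sen side, PAPPA2, a protease of IGF binding proteins, was at 354 and 325 normalized reads in PMD-Sen and 3.24 and 3.39 in Ca2+-Sen, and the chemokine gene CXCL2 was at 352 and 181 against 3.24 and 1.69. COMP, a cartilage matrix protein, was at 164 and 319 against 9.72 and 12.7. On the Ca2+-Sen side, SLC6A12, which imports the organic osmolyte betaine, was at 388 and 572 in Ca2+-Sen, 5.17 and 1.13 in PMD-Sen, and 0 and 3.26 in untreated cells. CYP26B1, which breaks down retinoic acid, was at 447 and 430.1 against 15.5 and 4.51. These genes were chosen by their size after the values had been seen and were not tested.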
